A study of Mus musculus with 8 samples.

Results

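Stimulated-only SMAD4 peaks at gene ends are regions that were called as SMAD4 peaks in mouse endothelial cells given BMP9/10. They overlap no peak called in the cells without it, and their summit lies within 1 kb of an end of a protein-coding gene. There were 659 of them among 3245 stimulated-only peaks on chromosomes 1 to 19, X and Y, and among 5466 peaks in all (4333 stimulated and 1133 unstimulated). They were chosen by 3 criteria: presence in the stimulated list, no overlap of 1 bp or more with an unstimulated peak, and a summit within 1 kb of either end of a RefSeq gene body, inside or outside the gene. The members were therefore selected on the peak calls of the very comparison they stand for, so their presence after stimulation is not a finding, and differences in strength from shared peaks are given as descriptions with no test.

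MS1 is an established mouse endothelial line from pancreatic islets, immortalised with a viral large T antigen. After 24 h without serum, the cells were given fresh medium (unstimulated) or recombinant BMP9/10 at 1 ng/mL (stimulated). Chromatin immunoprecipitation with a SMAD4 antibody followed by sequencing gave 2 IP and 2 input libraries per condition, 8 samples in 4 groups. Both stimulated IP titles contain KD, an abbreviation that no label spells out. The authors merged the 2 IP libraries of a condition before calling peaks, so each peak has 1 pooled value, no replicate error and no test between conditions. The unstimulated list rests on 52971023 IP tags and the stimulated list on 41044888.

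BMP9 and BMP10 circulate in blood and act on endothelium through the receptor ALK1 and the co-receptor endoglin. The activated receptor phosphorylates SMAD1 and SMAD5, which join SMAD4, enter the nucleus and bind regulatory DNA together with other transcription factors. SMAD proteins touch DNA at short sequences, of which the best known are the SMAD box, GTCT or AGAC, and the GC-rich site GGCGCC. Loss of SMAD4, ALK1 or endoglin causes hereditary haemorrhagic telangiectasia, a disease of malformed vessels.

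The sequences of the most enriched members at promoters are shown because the members mostly lay at gene starts. Promoters with a member also held the GC-rich SMAD site GGCGCC more often than promoters at large did. Shown, in order of fold enrichment, are the 9 strongest members whose summit fell inside the RefSeq promoter window of their gene, in the table used here. Each run is the 250 bases before the listed transcript start, 5′ to 3′ on the gene's strand, from RefSeq GRCm38.p6, the assembly behind mm10. Capitals mark SMAD boxes (GTCT, or AGAC on the other strand) and GGCGCC, which reads the same on both strands. The windows are Zfp748 at chr13:67553153-67553402 (minus strand), Ap1ar at chr3:127837524-127837773 (minus), Ogdhl at chr14:32321769-32322018 (plus) and Edn1 at chr13:42301226-42301475 (plus). Those of Eif2d, Zzz3 and Ipo4 are chr1:131152957-131153206 (plus), chr3:152395753-152396002 (plus) and chr14:55635685-55635934 (minus). Kmt2a and Trim59 have chr9:44881290-44881539 (minus) and chr3:69044743-69044992 (minus).
Zfp748: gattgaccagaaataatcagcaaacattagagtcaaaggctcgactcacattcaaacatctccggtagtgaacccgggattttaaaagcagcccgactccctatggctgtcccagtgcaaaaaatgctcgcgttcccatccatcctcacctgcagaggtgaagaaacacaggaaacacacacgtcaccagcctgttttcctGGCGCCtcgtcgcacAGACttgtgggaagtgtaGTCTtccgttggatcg
Ap1ar: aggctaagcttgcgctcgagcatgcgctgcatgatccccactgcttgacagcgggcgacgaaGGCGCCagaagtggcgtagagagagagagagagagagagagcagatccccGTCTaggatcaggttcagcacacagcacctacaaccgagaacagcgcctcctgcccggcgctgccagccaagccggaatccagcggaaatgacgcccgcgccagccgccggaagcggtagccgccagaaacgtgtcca
Ogdhl: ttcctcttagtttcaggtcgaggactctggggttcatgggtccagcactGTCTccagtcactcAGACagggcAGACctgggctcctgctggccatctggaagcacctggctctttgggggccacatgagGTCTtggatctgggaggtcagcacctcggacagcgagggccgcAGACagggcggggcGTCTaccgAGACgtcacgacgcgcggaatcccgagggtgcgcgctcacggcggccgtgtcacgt
Edn1: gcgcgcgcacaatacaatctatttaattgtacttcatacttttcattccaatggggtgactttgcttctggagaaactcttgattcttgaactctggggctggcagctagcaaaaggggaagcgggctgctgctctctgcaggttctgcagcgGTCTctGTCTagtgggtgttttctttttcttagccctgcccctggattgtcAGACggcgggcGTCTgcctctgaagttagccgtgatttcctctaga
Eif2d: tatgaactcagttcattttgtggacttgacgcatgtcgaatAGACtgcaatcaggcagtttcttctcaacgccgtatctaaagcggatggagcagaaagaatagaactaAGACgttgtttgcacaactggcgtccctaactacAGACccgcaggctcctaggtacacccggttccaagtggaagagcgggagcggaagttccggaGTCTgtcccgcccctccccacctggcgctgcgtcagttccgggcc
Zzz3: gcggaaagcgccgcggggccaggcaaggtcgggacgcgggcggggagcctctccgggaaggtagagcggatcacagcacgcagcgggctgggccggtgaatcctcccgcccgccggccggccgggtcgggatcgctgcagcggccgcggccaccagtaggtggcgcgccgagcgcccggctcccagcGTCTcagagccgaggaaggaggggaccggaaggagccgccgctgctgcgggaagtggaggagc
Ipo4: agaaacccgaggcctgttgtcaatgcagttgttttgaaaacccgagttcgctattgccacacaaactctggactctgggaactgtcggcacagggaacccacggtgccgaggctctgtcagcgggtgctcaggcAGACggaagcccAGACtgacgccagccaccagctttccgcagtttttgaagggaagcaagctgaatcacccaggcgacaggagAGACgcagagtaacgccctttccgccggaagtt
Kmt2a: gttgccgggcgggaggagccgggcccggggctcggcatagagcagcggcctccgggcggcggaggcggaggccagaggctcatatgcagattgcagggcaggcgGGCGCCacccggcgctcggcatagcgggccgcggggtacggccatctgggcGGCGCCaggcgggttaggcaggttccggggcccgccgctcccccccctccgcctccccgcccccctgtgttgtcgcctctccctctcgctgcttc
Trim59: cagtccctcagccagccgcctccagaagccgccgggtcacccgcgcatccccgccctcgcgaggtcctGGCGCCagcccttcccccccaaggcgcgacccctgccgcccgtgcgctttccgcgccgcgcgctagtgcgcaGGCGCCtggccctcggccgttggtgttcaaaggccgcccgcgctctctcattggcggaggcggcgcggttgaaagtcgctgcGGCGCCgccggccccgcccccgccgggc

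In the Zfp748 promoter the peak summit fell on base 207 of the run, the last base of its GGCGCC at bases 202 to 207, and 2 SMAD boxes followed within 50 bp. Zfp748 encodes a zinc finger protein. In Trim59 the summit lay on base 75, 1 bp past the first of 3 GGCGCC sites (bases 69 to 74), and there was no SMAD box in the run. In Ap1ar the summit on base 92 was 24 bp from GGCGCC at bases 63 to 68. Kmt2a, which encodes a histone H3 lysine methyltransferase, had 2 GGCGCC sites and no SMAD box, but its summit fell on base 3, 102 bp from the nearer site. The run of Ogdhl had 7 SMAD boxes and no GGCGCC, and those of Edn1, Eif2d, Ipo4 and Zzz3 had 4, 4, 3 and 1 SMAD boxes and no GGCGCC. Not all of these boxes were near the summit. Within 50 bp of it there were 2 each in Ogdhl, Eif2d and Ipo4, 1 in Edn1 and 0 in Zzz3. The Edn1 summit lay 11 bp past the start, outside the run shown. The strong members thus included promoters with the GC-rich site, with SMAD boxes, and with both. A match is a description of the letters, not evidence of a bound site.

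The members lay at gene starts far more than at the other end of genes. The rule took both ends alike, so this was not fixed by the choice of members. The direction of transcription was listed for the genes of 535 members, and for 503 of these the nearest end was the start (94.0%, exact 95% binomial interval 91.7 to 95.9). For the other 32 it was the far end, where transcription finishes. For the remaining 124 members the strand was not given in the table used here. Among 156 shared peaks at gene ends, which overlap an unstimulated peak, the start was nearest for 111 of 124 with a listed strand (89.5%, 82.7 to 94.3). Of the unstimulated peaks at gene ends it was nearest for 112 of 129 (86.8%, 79.7 to 92.1). The intervals cover counting error only, and those of members and shared peaks overlap. Weaker members showed the same preference: 263 of 279 in the lower part by fold enrichment (94.3%) and 240 of 256 in the upper part (93.8%).

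Summits at gene starts gathered close to the start and on both sides of it. The median position was 11 bp inside the gene, with quartiles at 127 bp upstream and 205 bp inside. Of the 503 members, 243 (48.3%) lay upstream of the start. The distance was at most 100 bp for 188 (37.4%), 250 bp for 320 (63.6%) and 500 bp for 415 (82.5%), which left 88 between 500 bp and 1 kb. The 100 bp just upstream held 101 summits and the 100 bp just inside held 87, the fullest bins in the plot of summit positions. These distances are to the outermost end of the gene body, and a transcript can start further in. The Zzz3 summit was 519 bp inside the gene body but 11 bp before the listed transcript start. Measured to the nearest listed transcript start, the median distance was 129 bp instead of 150 bp, and 222 of the 503 (44.1%) lay within 100 bp.

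**Figure D1:**
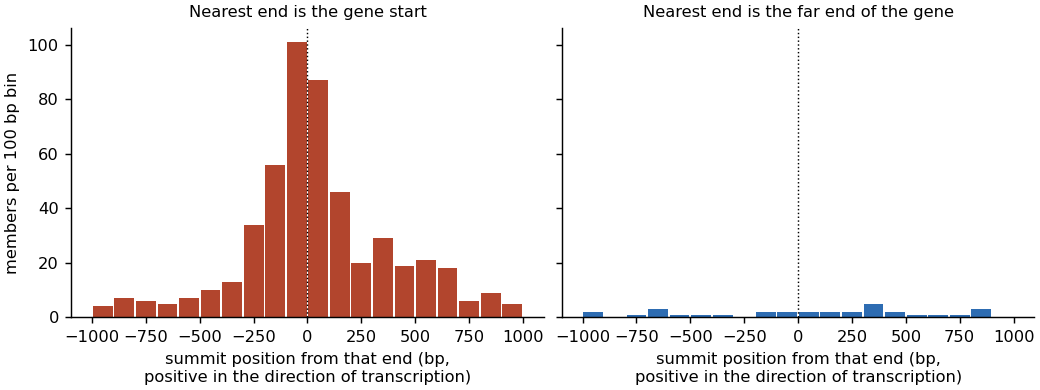
Position of the member summits (bp, horizontal axis) from the gene start (left, 503 members) or from the far end (right, 32 members), as members per 100 bp (vertical axis); positive positions point in the direction of transcription. The summits at starts peak in the bins on either side of 0 (101 and 87 members), while those at far ends are spread over the whole 2 kb range.

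The 32 far-end members formed no such cluster. Their median distance to the end was 434.5 bp, and 9 lay within 250 bp of it. Their median fold enrichment was 4.45 and their median width 200 bp, against 4.33 and 183 bp at starts. Of these 32, 3 were also within 1 kb of a listed transcript start. The weakest member of all, at Lars2 (mitochondrial leucyl-tRNA synthetase), belonged to the far-end members and lay 628 bp inside the gene from the far end (chr9:123461923-123462119) with a fold enrichment of 1.91.

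Most members touched a single gene. Of the 659, 550 (83.5%) had 1 or both ends of a single gene within 1 kb. Another 73 (11.1%) had 2 starts on opposite strands within 1 kb, whether or not the summit lay between them, and shared peaks had this arrangement about as often, 18 of 156 (11.5%). A start and a far end together were in reach of 11 members, 2 starts on the same strand of 3, and 2 far ends of 1. For 21 members with several genes a strand was not given. The summit lay inside a gene body for 332 members (50.4%).

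In terms of genes, 728 of 21887 protein-coding genes (3.33%) had a member within 1 kb of an end. Of the 17492 genes with a listed strand, 556 (3.18%) had one at the start and 42 (0.24%) at the far end. These shares are the background for the gene lists that follow. A shared peak was at an end of 186 genes, and 10 genes had both a member and a shared peak. Genes with a member had a median length of 23.6 kb, against 17.2 kb over all protein-coding genes. The share of stimulated-only peaks that lay at gene ends was 20.3% (659 of 3245, 18.9 to 21.7), and that of shared peaks was 14.5% (156 of 1079, 12.4 to 16.7). No test was made of this difference, because position and call both belong to the rule.

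Members were weaker and narrower than shared peaks and close in strength to stimulated-only peaks elsewhere. Fold enrichment is the authors' ratio of the IP pileup, the tags stacked over the summit, to the local background, each plus 1. Its median was 4.40 in members (quartiles 3.70 and 5.27, range 1.91 to 11.9), 4.26 in the 2586 stimulated-only peaks elsewhere and 6.19 in shared peaks at gene ends. The pileup per 1000000 IP tags had medians of 0.585, 0.633 and 0.999 in the same order. The median local background was 4.60 tags for members, 5.20 for stimulated-only peaks elsewhere and 6.0 for shared peaks at gene ends. Median width was 186 bp, 179 bp and 341.5 bp. A peak that was called only once had to be missed in the other list, so the lower values of members follow from the choice and are not a result.

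**Figure D2:**
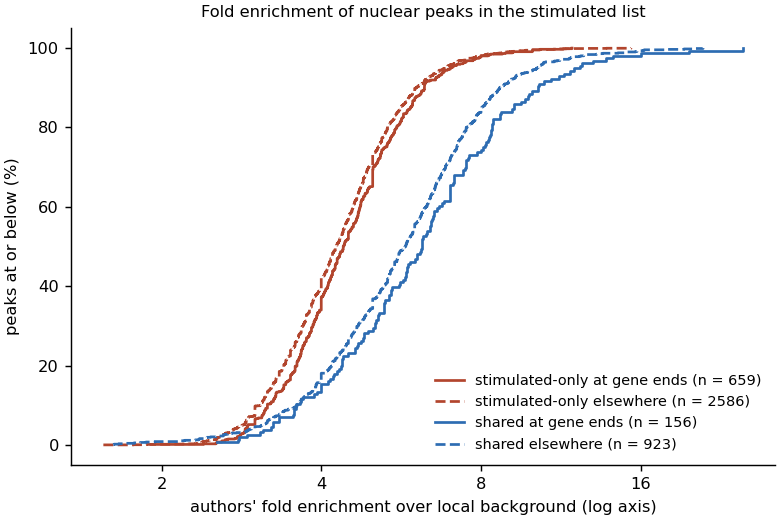
Cumulative share of stimulated peaks (percent, vertical axis) at or below each fold enrichment over local background (log axis), for 659 members, 2586 stimulated-only peaks elsewhere, 156 shared peaks at gene ends and 923 shared peaks elsewhere. The 2 stimulated-only curves run close together (medians 4.40 and 4.26) and lie to the left of the shared ones (6.19 and 5.76).

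The strongest members were at ends of genes with varied roles. Zfp748 had a fold enrichment of 11.9 over 434 bp (chr13:67552963-67553396), from 37 tags over a background of 2.20. Coq10b, which serves coenzyme Q in the respiratory chain, had 11.4 (chr1:55052951-55053419, 39 tags over 2.50), 387 bp inside its start. Ap1ar, an adaptor of vesicle traffic, had 10.3 (chr3:127837542-127837828). Ogdhl, a relative of the 2-oxoglutarate dehydrogenase subunit, had 10.0 (chr14:32321820-32321994). Phlda1, a pleckstrin homology domain protein, had 10.0 with 38 tags over 2.90 (chr10:111506060-111506277), and Edn1, the precursor of the vasoconstrictor endothelin-1, had 10.0 as well. Next came Znrf1, a ubiquitin ligase, with 9.20, Eif2d, a translation factor, with 9.17, Trim9, another ubiquitin ligase, with 8.89, and Zzz3, a subunit of a histone acetyltransferase complex, with 8.78. Eif2d had the tallest pileup of these 10, 54 tags over a background of 5.0. The high folds of the others stood on 29 to 39 tags over a background of 2.19 to 2.90, near the lowest background of any member (2.19).

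Among the widest members were those at Fosl2, an AP-1 subunit (766 bp, fold enrichment 4.68), and at Vps26c, a subunit of the retriever complex of endosomes (749 bp, 6.27). The lowest folds were those of Lars2 (1.91), of Cdkn2d, a cell cycle inhibitor (2.40), and of Gpbp1l1 (2.53). Those 3 stood on 85, 35 and 37 tags over backgrounds of 44, 14 and 14, so the lowest folds came with high background and not with few tags. Just inside the 1 kb limit lay the members of Plekhb1 at 998 bp (4.18), Gtf2e2 at 990 bp (4.60) and Dusp5 at 984 bp (5.12). The nearest stimulated-only peaks outside it were those of Gm31513 at 1014 bp (4.40), Wdr38 at 1018 bp (4.15) and Zfp335 at 1018 bp (5.0). Fold enrichments on both sides of the limit were alike.

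Among the genes known to respond to BMP and TGF-beta, 4 of 19 BMP target genes (21.1%, exact 95% interval 6.05 to 45.6) and 6 of 19 TGF-beta target genes (31.6%, 12.6 to 56.6) had a member, against 3.33% of all genes. Shared peaks were at an end of 4 genes of each of these lists (21.1%), against 186 of all 21887 genes. The BMP targets were Hes1, Hey1, Id3 and Smad7. Hes1, a bHLH repressor and also a Notch target, had 2 members. One lay inside the gene, 747 bp from an end (chr16:30066879-30067123, fold enrichment 6.90, 28 tags over 3.20), and the other 849 bp outside it (chr16:30068570-30068672, 3.64, 15 tags over 3.40). Hey1, a related repressor, had a member of 6.26, 604 bp outside the gene body (chr3:8667558-8667756, 19 tags over 2.19). The Id3 member lay 474 bp upstream of the start of this inhibitor of DNA binding (chr4:136143185-136143456, 5.0, 29 tags over 5.0).

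Smad7 encodes an inhibitory SMAD that shuts off the receptors. Its member lay 191 bp inside the gene (chr18:75367379-75367606) with a fold enrichment of 6.57, from 20 tags over 2.19. An unstimulated summit was 0.438 kb away, and a shared peak of 10.0 stood at the same gene. Id3 likewise had a shared peak at an end (fold enrichment 7.0), with the nearest unstimulated summit 1.54 kb from the member. At both genes the member was thus an added call beside a region that was also called without BMP9/10. For Hes1 the nearest unstimulated summits were 2.71 and 4.31 kb from its members, and no shared peak lay at its ends.

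The TGF-beta targets with a member, Smad7 aside, were Ccn1, Ccn2, Fn1, Junb and Tgif1. Ccn1 and Ccn2 encode matricellular proteins that also respond to YAP and TEAD. Their members lay 36 bp outside the start (chr3:145649924-145650114, fold enrichment 5.96) and 65 bp outside a gene end (chr10:24595299-24595689, 5.33), with 30 and 31 tags. Fn1, which encodes fibronectin, had a member of 4.75 on 18 tags, 166 bp outside the gene (chr1:71653348-71653483). Junb, an AP-1 subunit, had one of 4.71 on 32 tags, 16 bp upstream (chr8:84978669-84978853), and a shared peak of 4.70 at an end as well. Tgif1, a corepressor of SMADs, had a member of 4.17, 642 bp inside its start (chr17:70852710-70853015). The members of the 2 lists had 15 to 32 tags, close to the quartiles of all 659 (19 and 29).

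The signalling machinery itself had few members. Of 27 genes for SMADs and for the ligands and receptors of both branches, only Smad1 had one (3.70%, 0.0937 to 19.0), a share near the 3.33% of all genes. Smad1 encodes the receptor-activated SMAD of the BMP branch, and its member lay 80 bp upstream of the start (chr8:79399428-79399544, fold enrichment 6.58, 24 tags over 2.80). Of 24 SMAD cofactors and SMAD ubiquitin ligases, Tgif1 alone had a member (4.17%, 0.105 to 21.1).

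Among vascular lists, the flow response and PI3K list stood highest, with 6 of 20 genes (30.0%, 11.9 to 54.3). Edn1 led with its member of 10.0, 11 bp inside the start (chr13:42301422-42301655, 31 tags over 2.20). Klf4, a flow-responsive transcription factor, had a 469 bp member of 6.17, 388 bp upstream (chr4:55532770-55533238). Cyp1b1, a cytochrome P450, had one of 4.60, 739 bp upstream (chr17:79715736-79715889). The other 3 genes had low folds over high background. Pecam1, the junction protein CD31, had a member of 3.21 lying 2 bp outside the gene (chr11:106715209-106715402, 44 tags over 13.0). Thbd, the anticoagulant receptor thrombomodulin, had 2 members of 2.91 and 2.60 (chr2:148408189-148408342 and chr2:148407485-148407613, backgrounds 10.0 and 9.0). Pik3ca, the catalytic PI3K subunit, had one of 2.88, 6 bp upstream (chr3:32397044-32397187, 22 tags over 7.0). No gene of this list had a shared peak at an end, but only 186 of all 21887 genes did, so none among 20 says little.

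The Notch list had 3 of 20 genes with a member (15.0%, 3.21 to 37.9): Hes1, Hey1 and Jag1. Jag1, a Notch ligand, had a member of 5.51, 874 bp upstream of its start (chr2:137117220-137117478). Hey1 and Jag1 were also the 2 of 16 arterial and venous identity genes with a member (12.5%, 1.55 to 38.3). The endothelial identity list had 2 of 25 (8.0%, 0.984 to 26.0). These were Pecam1 and Lyl1, a bHLH factor of haematopoietic and endothelial cells, with 3.78 at 251 bp inside the start (chr8:84701537-84701743). The VEGF and tip cell list had 1 of 17 (5.88%, 0.149 to 28.7), the netrin receptor gene Unc5b, with 5.0 at 131 bp inside the start (chr10:60831398-60831525). None of 10 angiopoietin and TIE genes had a member, which allows a share of up to 30.0%. The endothelial, VEGF, arterial and Notch intervals were wide, and for the first 3 of these lists all but 1 or 2 genes were without a member.

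Immediate early genes, which cells switch on within minutes of a stimulus, and feedback inhibitors of ERK signalling also ranked high. Of 23 immediate early genes, 7 had a member (30.4%, 13.2 to 52.9): Dusp1, Fosl2, Jun, Junb, Klf10, Nr4a1 and Zfp36. Nr4a1, an orphan nuclear receptor, had the highest fold, 5.71 at 197 bp inside the start (chr15:101253918-101254146), and Klf10, a TGF-beta-inducible repressor, had 5.41 (chr15:38300828-38301210). Of 18 ERK feedback genes, 5 had a member (27.8%, 9.69 to 53.5). Dusp2, a phosphatase of MAP kinases, had 6.75, 20 bp upstream of its start (chr2:127336046-127336292, 36 tags), and Spry2, an inhibitor of receptor tyrosine kinases, had 5.95, 803 bp inside (chr14:105895936-105896146, 18 tags). Dusp5, an ERK phosphatase, had 2 members, of 5.12 and 3.57, 984 bp inside and 234 bp upstream of the start. Spred2 and Spry1 completed the list.

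Broadly expressed genes were represented unevenly. The actin cytoskeleton and adhesion list had 6 of 33 genes with a member (18.2%, 6.98 to 35.5), led by Myl12a, a myosin light chain (fold enrichment 5.88), Zyx, zyxin of focal adhesions (4.48), and Rock2, a kinase downstream of RhoA (3.87). Translation factors and tRNA synthetases had 6 of 42 (14.3%, 5.43 to 28.5), with Rars, arginyl-tRNA synthetase, at 6.18 and Eif3d and Eif4g1, initiation factors, at 5.37 and 5.01. Chromatin regulators had 6 of 51 (11.8%, 4.44 to 23.9), among them Kmt2a (7.82), the Polycomb gene Suz12 (6.17) and the methyltransferase gene Kmt2c (4.71). The chromatin list also counts Arid2, whose member of 7.93 was nearer to an end of Gm38469. Cytoplasmic ribosomal protein genes, which are very highly transcribed, had 3 of 79 (3.80%, 0.790 to 10.7), close to the 3.33% of all genes: Rps10 (4.74), Rpl34 (4.33) and Rpl27 (3.89). Nuclear respiratory chain genes had 2 of 49 (4.08%), with Ndufv1 at 4.25 and Ndufa4 at 4.11, the latter nearer to an end of Phf14. The cell cycle list had 1 of 22, Cdkn2d.

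The remaining expressed lists had 2 or 3 genes with a member each, apart from the zinc finger genes. Splicing factors had 3 of 40 (7.50%: Srsf3 at 3.57, U2af2 at 3.43, nearer to an end of Epn1, and Hnrnpa2b1 at 2.90), and proteasome genes 2 of 31 (6.45%: Psmd12 at 5.50 and Psmc4 at 4.24). RNA polymerase II and Mediator genes had 2 of 39 (5.13%: Gtf2e2 at 4.60 and Taf4 at 3.60), and chaperone and unfolded protein response genes 2 of 27 (7.41%: Atf6 at 5.17 and Atf4 at 3.11). Zinc finger genes named Zfp had 14 of 367 (3.81%), near the background, with Zfp748 (11.9), Zfp768 (5.58) and Zfp384 (5.0) the strongest. Housekeeping genes had 2 of 15 (13.3%, 1.66 to 40.5), the highest share in this group of lists. RNA levels of these genes were not analysed here.

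Few genes of other cell types had members, but the lists of 6 such types are short and the interval of each includes the 3.33% of all genes. Mural cell (13), fibroblast (12), pancreatic islet and acinar (15) and hepatocyte (14) lists had 0 each, which allows shares of up to 20% to 25%. Leukocyte genes had 1 of 14, Spi1 (3.13), and neuron genes 1 of 14, Snap25 (6.0). None of 1106 olfactory receptor genes had a member, which allows a share of up to 0.271%. Several genes sit on more than 1 list (Smad7, Hes1, Hey1, Junb, Jag1, Tgif1, Pecam1, Zfp36), so the lists are not independent, and with 10 to 51 genes in all but the ribosomal protein, olfactory receptor and Zfp lists, the intervals are wide.

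**Figure D3:**
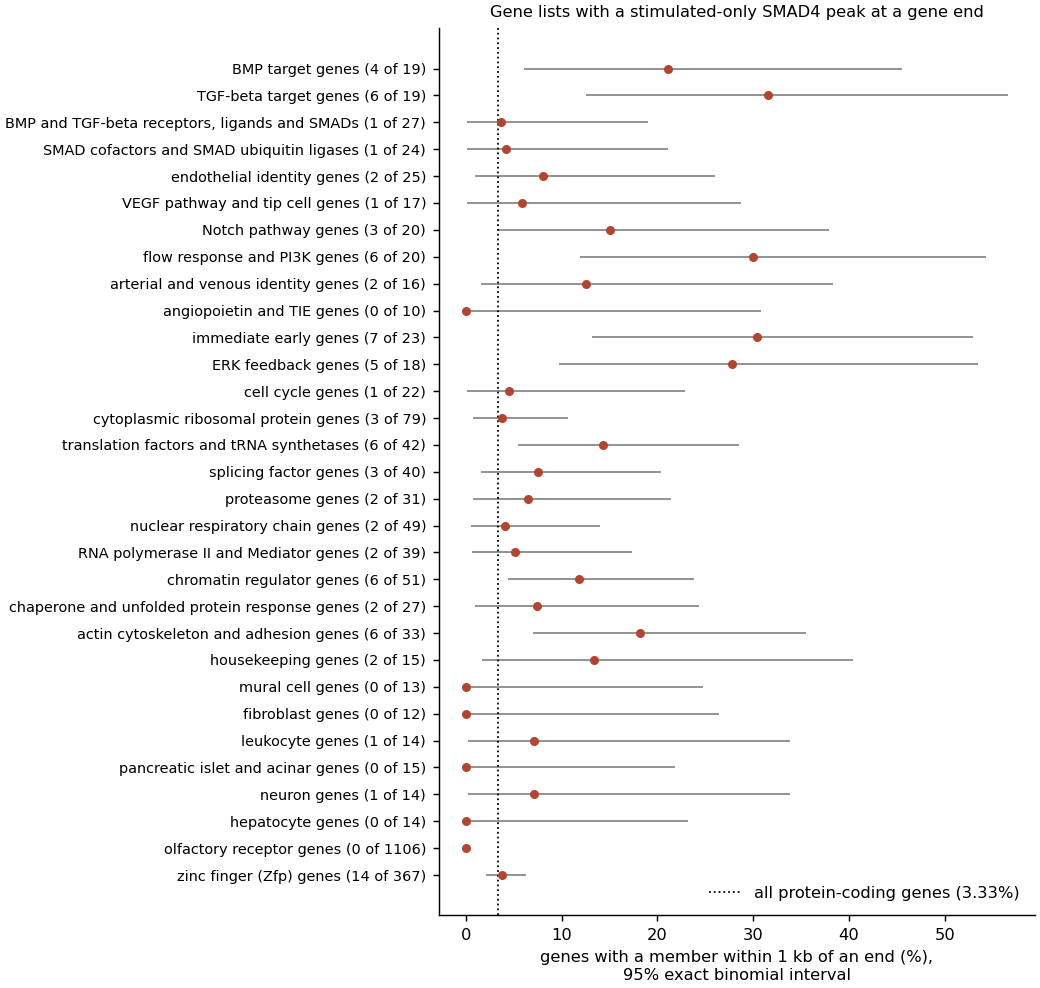
Share of the genes of each list with a member within 1 kb of an end (percent, points) with exact 95% binomial intervals (lines), for 31 lists with counts in parentheses; the dotted line is the share of all protein-coding genes, 3.33%. The TGF-beta target, immediate early, flow response and ERK feedback lists lie highest (27.8% to 31.6%), and ribosomal protein and Zfp genes lie on the line.

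Read coverage of the unstimulated libraries over the members was not analysed here, so the change in SMAD4 signal behind these calls was not measured. The deposited p-values allow a calculation of the change that would take a summit under the call limit, on the assumption of an equal local background. A Poisson tail computed from each peak's pileup and background came within 1% of its deposited p on the −log10 scale, and the weakest called unstimulated peak on these chromosomes had 6.03. For each member the smallest drop in pileup per IP tag was computed at which the unstimulated data would fall under that level, with the same local background per tag. It is no bound on the true change, since a higher unstimulated background would lower it. The calculation also used the summit alone and not the width. No stimulated peak on these chromosomes was narrower than 100 bp, so a narrow member could lose its call at a smaller drop. This smallest stimulated over unstimulated ratio had a median of 1.55, quartiles of 1.35 and 1.79 and a range of 1.08 to 3.67. By this calculation, only 94 of the 659 member summits needed a ratio above 2. The largest values were those of Zfp748 (3.67) and Coq10b (3.60), and Edn1 had 3.08. Among the response genes the values were 2.26 and 1.21 for the 2 Hes1 members, 2.04 for Ccn1, 1.99 for Smad7, 1.89 for Hey1, 1.78 for Id3 and 1.08 for the weaker Thbd member.

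Shared peaks at gene ends, called in both lists, give a measured ratio to set beside these values. Over 156 pairs the pileup per IP tag was higher in the stimulated list by a median ratio of 1.52 (quartiles 1.33 and 1.71, range 0.825 to 2.22). The ratio of their local backgrounds per tag had a median of 0.988 (quartiles 0.832 and 1.29). For 305 members (46.3%) the smallest ratio was at or under 1.52. By this calculation, a ratio of the size common at shared peaks would leave those members without an unstimulated call. The summits of the other 354 (53.7%) would need a larger ratio to fall under the limit. Shared peaks are by definition those that kept an unstimulated call, so peaks with ratios large enough to lose it are missing from this comparison. The split of members is therefore a description only. Every member had a higher pileup per 1000000 tags than the weakest unstimulated peak (0.264, 14 tags). This follows from depth and the call limit, since the lowest stimulated peak on these chromosomes, with 11 tags, already had 0.268. Of the members, 491 (74.5%) exceeded the 10th percentile of the unstimulated peaks (0.472), and 181 (27.5%, 24.1 to 31.0) exceeded their median (0.698). "Stimulated-only" thus names a difference in calls between pooled libraries, and whether unstimulated signal was absent at a member was not tested.

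**Figure D4:**
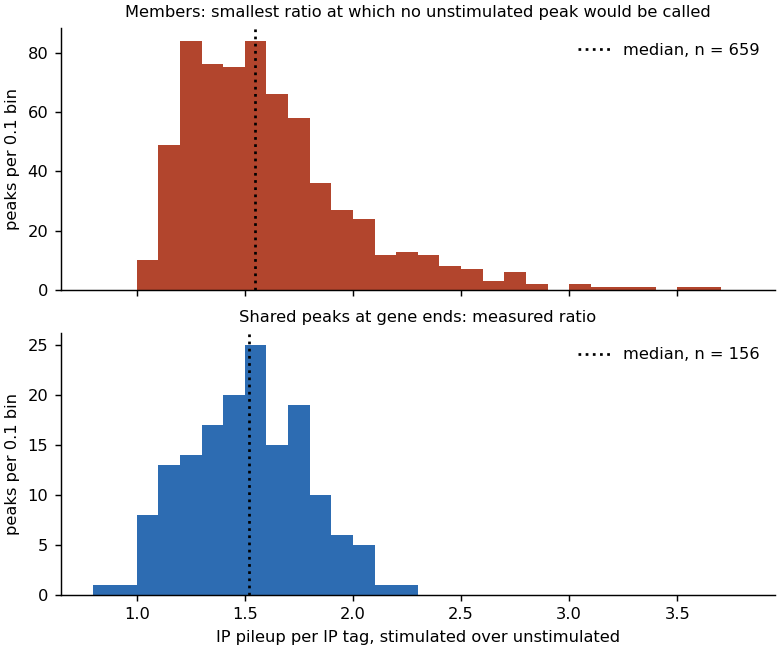
Top: for 659 members, the smallest ratio of IP pileup per IP tag, stimulated over unstimulated, at which the summit would fall under the unstimulated call limit (horizontal axis), as peaks per 0.1 bin (median 1.55). Equal local background was assumed and peak width was not used. Bottom: the ratio measured in 156 shared peaks at gene ends (median 1.52); the member values run from 1.08 to 3.67 and the measured ratios from 0.825 to 2.22.

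Members seldom stood beside an unstimulated peak, which follows in part from their choice. The rule left out every peak that overlaps an unstimulated one, and there were only 1130 unstimulated peaks on these chromosomes. The nearest unstimulated summit was within 1 kb for 10 members (1.52%), within 10 kb for 37 (5.61%) and within 100 kb for 137 (20.8%), with a median distance of 425 kb. Stimulated-only peaks elsewhere had 1.55%, 9.63% and 30.2%, with a median of 376 kb. Smad7 and Arid1a, whose members lay 0.438 and 0.779 kb from an unstimulated summit and which had shared peaks of 10.0 and 5.60, were among the 10 within 1 kb.

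The promoters of genes with a member were rich in G and C. RefSeq gave a 300 base promoter, 250 before to 50 after the listed start, for 17492 genes, none on chromosome 18. The median GC content was 65.0% for the 556 genes with a member at the start, 61.7% for 125 with a shared peak at the start and 56.3% for all listed promoters. The ratio of observed to expected CpG dinucleotides, which is high in CpG islands, had medians of 0.844, 0.837 and 0.577. It was 0.6 or more in 83.1% of promoters with a member, 80.0% of those with a shared peak and 48.4% of all. Motif shares were therefore also compared within promoters of 60 to 70% GC (231 with a member, 4656 in all). This matched GC content but not the CpG ratio, and GGCGCC and CCGGAAG both contain a CpG. The part of CpG content in the motif shares below, in whole windows and around summits, was not tested.

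The GC-rich SMAD site GGCGCC was in 38.1% of the promoters with a member (interval 34.1 to 42.3), in 38.4% of those with a shared peak and in 15.4% of all. Within 60 to 70% GC it was in 39.8% (33.5 to 46.5) against 25.4% of all such promoters. The GC-rich variant GGCTCC was in 48.6% of promoters with a member against 34.4% of all. Within the GC range it did not distinguish them, with 47.2% against 48.8%. The SMAD box, GTCT or AGAC, did not distinguish them: 84.4% of promoters with a member held at least 1, against 87.0% of all. So short a sequence occurs in most windows of this length. The palindrome of 2 SMAD boxes, GTCTAGAC, was in 0.360% and 0.212%. The ETS site CCGGAAG, bound by a family with major roles in endothelium and in housekeeping promoters, was in 25.4% against 11.9%, and within 60 to 70% GC in 31.2% against 19.95%. The GC box GGGCGG, the site of SP factors, was in 74.1% against 46.3%, but within the GC range in 79.2% against 78.0%. CCAAT, the NF-Y site, was less frequent with a member, 30.2% against 39.2%, and 29.9% against 37.8% within the range. The AP-1 site TGANTCA was in 5.94% and 7.03%. All were searched on both strands, 19 motifs in all, and GGCGCC contains the shorter site GGCGC.

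Nearer the summits the contrast in GGCGCC was larger. In the 101 bases around 190 distinct member summits inside promoter windows, 59 (31.1%, 24.6 to 38.2) held GGCGCC, against 5.90% of all promoters at the same offsets from the start. In promoters of 60 to 70% GC the shares were 28.3% (26 of 92, 19.4 to 38.6) and 9.76%. Around 49 shared summits it was 42.9% (28.8 to 57.8), an interval that overlaps that of members. ETS sites were in 16.8% (11.8 to 22.9) against 4.60%, and in 21.7% against 8.11% within the GC range. SMAD boxes were in 53.7% (46.3 to 60.9) against 49.8%, and within the GC range in 54.3% (43.6 to 64.8) against 46.2%. Both intervals include their comparison value. The E-box CACGTG was in 6.32% (3.31 to 10.8) against 3.01%. Within the GC range it was in 8.70% (3.83 to 16.4) against 4.55%, where the interval includes the comparison value. Around the shared summits SMAD boxes were in 67.3% (52.5 to 80.1). GC boxes were in 38.4% against 26.3%, but within the GC range in 41.3% against 46.0%. The variant GGCTCC was in 25.8% against 13.8%. Within the GC range it was in 23.9% (15.6 to 33.9) against 20.4%, where the interval includes the comparison value. CCAAT was in 8.95% against 18.8%, and within the GC range in 13.0% (6.93 to 21.7) against 19.8%, where the interval includes the comparison value. Of 95 stronger members, 33 held GGCGCC and 57 a SMAD box, and of 95 weaker ones, 26 and 45. ETS sites went the other way, with 12 and 20. None of the 190 held the SMAD palindrome, which allows a share of up to 1.58%.

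**Figure D5:**
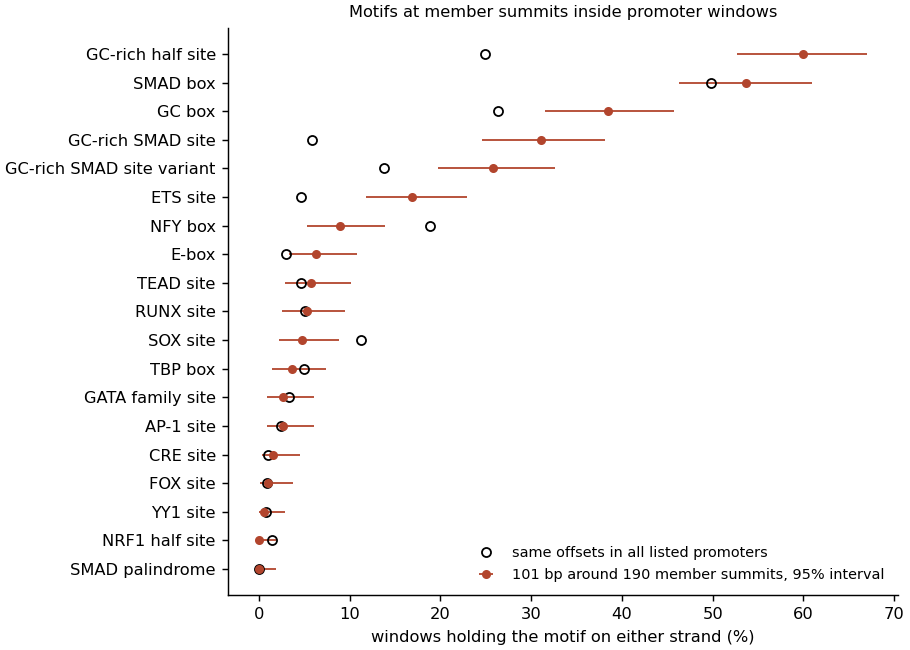
Share of the 101 bp windows around 190 member summits that hold each motif on either strand (filled points, exact 95% intervals as lines) and share of all listed promoters at the same offsets (open circles), in percent; the NFY box is the CCAAT motif. The GC-rich SMAD site (31.1% against 5.90%) and the ETS site (16.8% against 4.60%) lie to the right of their open circles, while the interval of the SMAD box includes its open circle.

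GGCGCC was also densest at the summit itself. Over 253 summit positions in promoter windows, its density was 4.24 per kb within 25 bp of the summit (52 sites), 2.99 at 25 to 50 bp, 2.08 at 50 to 100 bp, 1.67 at 100 to 150 bp and 1.32 at 150 to 200 bp. GC content over the same distances was 66.6%, 66.4%, 66.2%, 65.6% and 63.0%. The shorter site GGCGC had 14.96 per kb within 25 bp and 8.27 at 150 to 200 bp. CpG content by distance was not analysed here. The part of base composition, or of position from the start, in these declines was not tested. ETS sites declined as well, from 2.0 per kb within 25 bp to 0.611 at 150 to 200 bp (24 and 6 sites). Some rarer motifs did too, and the E-box went from 1.14 to 0.204 per kb (14 and 2 sites). The TEAD site GGAATG went from 0.653 to 0.204 (8 and 2 sites) and the TATA box TATAAA from 0.490 to 0.102 (6 and 1 sites). AP-1 sites did not, with 0.167 and 0.306 (2 and 3 sites). A decline away from the summit was thus not particular to GGCGCC. SMAD boxes stayed between 5.50 and 7.79 per kb and GC boxes between 4.38 and 6.68 per kb, with no steady decline. The variant GGCTCC had 2.86 per kb within 25 bp, 3.34 at 25 to 50 bp and 2.24 at 150 to 200 bp. The Zfp748 and Trim59 sequences shown above, where GGCGCC lies at or 1 bp from the summit, are examples of this pattern. Whether SMAD4 bound these sites directly was not tested.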

How the data were processed

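SMAD4 ChIP-seq of MS1 cells gave 8 samples in 4 groups of 2, and the authors deposited 1 list of narrow peaks per condition. The authors ran MACS2 2.1.0.20140616 with the IP libraries merged and the input libraries merged, with at most 1 tag kept per position, tags extended to 100 bp, a q cutoff of 0.01 and the larger set sampled down, per the file headers. The build is mm10, per the submitters' processing notes, and no aligner is named in the sources used here. Input tags numbered 72688953 (unstimulated) and 59057559 (stimulated), per the file headers. The deposited pileup is a coverage signal not scaled to depth, the deposited fold enrichment is a ratio to local background, and the deposited −log10 p and q values set the IP against that background.

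From these, pileups were divided by the IP tags of the list, the background was solved from the pileup and the fold enrichment, and summits were set beside RefSeq gene bodies of GRCm38.p6 (21887 protein-coding genes). The check of the Poisson tail covered all 4333 and 1133 peaks. Intervals are exact binomial at 95%, and the upper limit of a count of 0 is 3 counts of the total. Both cover counting error only, and the scripts were checked on simulated data. Python 3.11.15, pandas 2.3.3 and scipy 1.17.1 were used.

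The members and the 31 gene lists were chosen with earlier results of these data known. Named were the 10 members of highest fold enrichment, the 3 widest, the 3 weakest and the 3 nearest to either side of 1 kb. From the BMP, TGF-beta, SMAD and vascular lists every member was named, and from the other lists the 3 strongest. One item that the rule names is not reported here. For genes with several members the 5 with the highest fold enrichment were named. Genes outside this rule (Arid1a, Arid2, and those whose symbols complete a list) were named after their values were seen. The calculation of the smallest ratio of pileups and the comparison within a range of GC content were added after seeing the data. Alternatives changed the distance limit, the q threshold, the definition of overlap, the gene set and the promoter window.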

Additional observations from a re-analysis of the deposited data

How the results depend on the processing

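Of 50 alternative values, 33 kept within 1.5 times (counts) or within the interval of the main value (shares and medians), and 17 did not. With a limit of 500 bp the share of stimulated-only peaks at gene ends was 16.3%, and with 2 kb it was 24.99%, while the share at gene starts was 89.8% with 2 kb. Requiring a −log10 q of 5 or more left 429 members with a median fold enrichment of 5.0, of which 37.3% exceeded the median unstimulated pileup. With 10 or more there were 120 members at 133 genes, 17.1% of such stimulated-only peaks, with a median fold enrichment of 6.18, and 72.5% exceeded that pileup. Requiring an overlap of 50% of the stimulated peak gave 32.7% for the same quantity. The SMAD box was in 78.8% of promoters with only the bases before the start, in 60.3% on the gene's strand only and in 88.7% at 60 to 70% GC. GGCGCC was in 29.3% before the start and in 48.7% of genes with the summit inside the window. The share of members at a gene start was between 89.8% and 95.6% in all alternatives.

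No paired analysis was possible because the deposited lists used here hold 1 pooled value per condition, with no column per library, and the libraries are lettered A and B in one condition and D and E in the other. For the first reason no library was left out either. Depth limits the weak members: the lowest pileup was 12 tags, and a member's absence from the unstimulated list, which had more IP tags, shows only that no call was made there. The direction of transcription was missing for 124 members.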

Other observations

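Some members also lay near genes of non-coding RNAs. An end of a long non-coding RNA gene was within 1 kb of 96 members (14.6%), against 155 of 2586 stimulated-only peaks elsewhere (5.99%). The choice of members by distance to coding genes bears on this, since such RNAs often start beside a coding gene, and no test was made. A miRNA gene was within 1 kb of 5 members and 9 peaks elsewhere. The 5 were 2 members near Mir1945 at Gspt1 and a neighbouring predicted gene, and 1 each near Mir1932 at Rnf213, Mir484 at Marf1 and Mir7075 at Terf2. A tRNA gene was within 1 kb of 5 members (at Tmpo, Elf1, Ctc1 and, for 2 of them, Mrpl58) and of 3 peaks elsewhere. A snoRNA gene was within 1 kb of 0 members and 5 peaks elsewhere.

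A pair of members stood at 40 genes, and 2 was the highest number at any gene. Ranked by the higher fold enrichment these were Sertad1, a PHD finger-binding regulator of transcription (8.29, and 6.09 for the second), Tm9sf1 (7.95 and 3.97), Nsd3, a histone methyltransferase gene (7.20 and 4.50), Hes1 (6.90 and 3.64) and Wwc2 (6.8 and 4.0). At Sertad1 the members lay 401 bp inside the start and 351 bp past the far end. The stronger Tm9sf1 and Nsd3 members were nearest to an end of another gene, Ipo4 and Plpp5. At Wwc2 the members lay 43 bp inside and 628 bp upstream of the start. Whether such pairs are separate sites was not tested.

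Chromosomes differed in the share of their protein-coding genes with a member, from 0.621% on X (6 of 966 genes, leaving aside Y with 1 of 256) to 6.04% on chromosome 12 (41 of 679) and 5.15% on chromosome 15 (40 of 776). The X chromosome held 0.910% of members and 1.62% of stimulated-only peaks elsewhere. Input over these chromosomes was not analysed here.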
